A study of Homo sapiens with 6 samples.

Results

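Heat shock proteins and the small heat shock protein CRYAB were followed across 6 microarrays of human kidney organoids. The set named CRYAB, HSPB1, HSPA1A, HSPA8, HSP90AA1, HSP90AB1, DNAJB1, HSPH1, HSPD1 and BAG3, and probes were taken where the gene symbol, older synonyms counted, was one of these. Of the 10 genes, 9 had a probe, out of 17559 genes with a probe on the array, and HSPA1A had 2, so that 10 probes were read. No probe carried the name of HSP90AA1, so its level was not measured here. All 9 measured genes lay above background on all 6 arrays, with HSP90AB1 lacking a usable spot on 1 of them.

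The organoids were grown from mutants of the human embryonic stem cell line H9 that carried changes in PKHD1, the gene of autosomal recessive polycystic kidney disease. One line was PKHD1-/- (clone C51) and was set against a PKHD1+/- line (clone C9), so the control line also carried 1 changed copy and each genotype was a single clone. In the forskolin culture organoids received 20 µM forskolin, which activates adenylyl cyclase and raises cyclic AMP, from day 14. Flow culture placed them at day 14 on a layer of gelatin and fibrin, with medium moving at 4.27 ml/min from day 15. Static culture used the same kind of layer without flow, and the labels do not say whether forskolin organoids lay on one. Every culture was harvested at day 35, and 1 array was hybridised for each genotype and culture, so no group had a replicate. Organoids of H9 without a PKHD1 change were not analysed here.

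Heat shock proteins are chaperones that keep other proteins folded, and their genes are switched on together by the transcription factor HSF1 when a cell meets heat, oxidants or unfolded protein. Small heat shock proteins such as CRYAB and HSPB1 hold unfolding proteins in solution without using ATP. HSP70 proteins then refold them with J-domain partners such as DNAJB1 and exchange factors such as BAG3 and HSPH1, HSP90 proteins mature kinases and receptors, and HSPD1 forms the folding chamber of mitochondria. CRYAB is best known from the lens and is also abundant in heart and skeletal muscle, where it binds desmin and other filaments. In the kidney it is made mainly by medullary tubules.

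The promoter sequences below mark a motif of the heat shock element, to which HSF1 binds. They are those of the heat-inducible HSPA1A, its near copy HSPA1B and HSPB1. The motif was found by sequence alone, and HSF1 binding was not measured. Each line gives the 250 bases before the annotated gene start, 5′ to 3′, from RefSeq on build GRCh38.p14. The windows are chr6:31815293-31815542 for HSPA1A, chr6:31827488-31827737 for HSPA1B and chr7:76302423-76302672 for HSPB1, all on the + strand. Capitals mark GAANNTTC, 2 heat shock units head to head.
HSPA1A: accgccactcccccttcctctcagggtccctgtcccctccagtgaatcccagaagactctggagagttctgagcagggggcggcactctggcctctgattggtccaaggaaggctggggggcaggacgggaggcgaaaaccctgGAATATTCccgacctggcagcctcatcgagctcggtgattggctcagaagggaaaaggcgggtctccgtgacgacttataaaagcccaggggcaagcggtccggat
HSPA1B: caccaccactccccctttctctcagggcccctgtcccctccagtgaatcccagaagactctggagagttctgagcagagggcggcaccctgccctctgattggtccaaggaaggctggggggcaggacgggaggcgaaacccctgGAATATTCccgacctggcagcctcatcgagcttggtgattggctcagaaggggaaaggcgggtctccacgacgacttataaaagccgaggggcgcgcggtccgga
HSPB1: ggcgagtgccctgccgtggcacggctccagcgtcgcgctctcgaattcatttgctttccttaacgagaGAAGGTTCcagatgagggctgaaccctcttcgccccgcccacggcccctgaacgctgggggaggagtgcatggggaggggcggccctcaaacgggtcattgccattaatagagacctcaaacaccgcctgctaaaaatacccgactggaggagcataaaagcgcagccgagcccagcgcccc

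The marked pair stood at -106 to -99 from the gene start in HSPA1A, at -105 to -98 in HSPA1B and at -182 to -175 in HSPB1. The HSPA1A window also held CCAAT at -153 and -69, TATAAA at -30 and TGACG, the core of the cyclic AMP element, at -38. HSPA1B held CCAAT at -152 and -68 and TATAAA at -29, without TGACG. The HSPA1A and HSPA1B sequences matched at 235 of 251 aligned positions, or 93.6%. Either pair, GAANNTTC or TTCNNGAA, each of which reads the same on both strands, occurred in at least 1 annotated 300-base window of 7 of the 9 genes that had one. Counted by window, 8 of their 15 held it, against 13.5% of all 35116 windows. The windows of BAG3 and HSPH1 held neither, which says nothing about HSF1 elsewhere in these genes. Searched on both strands, TGACG was in 24.6% of all windows, CCAAT in 34.6% and TATAAA in 11.5%. RefSeq's table had no window for CRYAB.

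**Figure D1:**
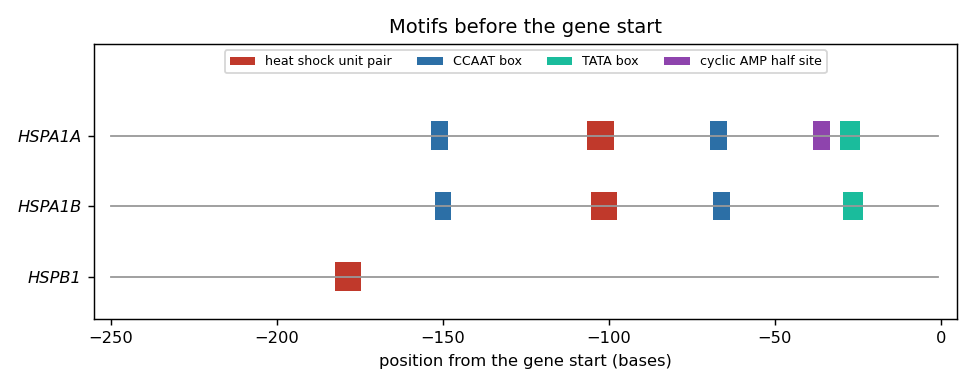
Motifs in the 250 bases before the gene start of HSPA1A, HSPA1B and HSPB1, drawn to scale, with the distance from the start in bases on the horizontal axis. Red blocks are the head-to-head heat shock unit pair, which sits at nearly the same place in HSPA1A and HSPA1B and farther upstream in HSPB1.

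Across the 6 arrays the share of probes above background ran from 83.6% to 94.7%. The forskolin arrays were the dimmest, with a median spot 16.5 and 21.2 intensity units above blank in PKHD1-/- and PKHD1+/-, against 33.6 to 58.3 on the other 4. They also came from another slide lot and scan session, per the deposited files, and correlated at 0.921 to 0.953 with the others, against 0.970 to 0.983 among the other 4. Forskolin and array batch therefore cannot be told apart. Podocyte markers (10 of 10 with a probe) and 12 or 13 of 13 proximal tubule markers lay above background on every array. Levels below are log2 of background-corrected, quantile-normalized intensity, and limma's moderated SE follows each ±. Levels of different genes come from different probes and are not set against each other.

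CRYAB, on chromosome 11 from 111908564 to 111923740 (GRCh38.p14), had the widest range of the measured members. It rose with forskolin in both genotypes, by close to the same amount, and read higher under flow than in static culture in both genotypes, while it barely differed between PKHD1-/- and PKHD1+/- in any culture. Its level was 10.12 in PKHD1-/- and 10.13 in PKHD1+/- with forskolin, 8.20 and 8.18 under flow, and 7.60 and 7.53 in static culture. Both forskolin arrays were highest, both flow arrays came next and both static arrays were lowest, with no overlap between cultures.

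Forskolin minus static was 2.52 in PKHD1-/- and 2.60 in PKHD1+/-, and the mean of 2.56 ± 0.06 on the log2 scale passed limma's test (SE, n = 2 pairs, adjusted p = 0.0254). By p this was rank 3 of 16475 genes tested, and by size the 46th highest. Flow minus static was 0.60 in PKHD1-/- and 0.65 in PKHD1+/-, 0.62 ± 0.06 on average, which did not pass (adjusted p = 0.449). The genotype difference was 0.03 ± 0.05 (SE, n = 3 pairs, adjusted p = 1.00). These differences were visible before normalization: the spot stood 604 units above blank in PKHD1-/- and 859 in PKHD1+/- with forskolin, 308 and 353 under flow, and 146 and 159 in static culture. In the authors' value table the ratio of forskolin to static was 8.72 in PKHD1-/- and 8.74 in PKHD1+/-, and that of flow to static was 1.63 and 1.79. In such bulk samples more cells that make a transcript and more transcript per cell cannot be told apart. The forskolin call was lost when any 1 of the 6 arrays was left out, with limma adjusted p from 0.0961 to 0.312 and differences from 2.52 to 2.59. The same held for all 177 genes called.

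**Figure D2:**
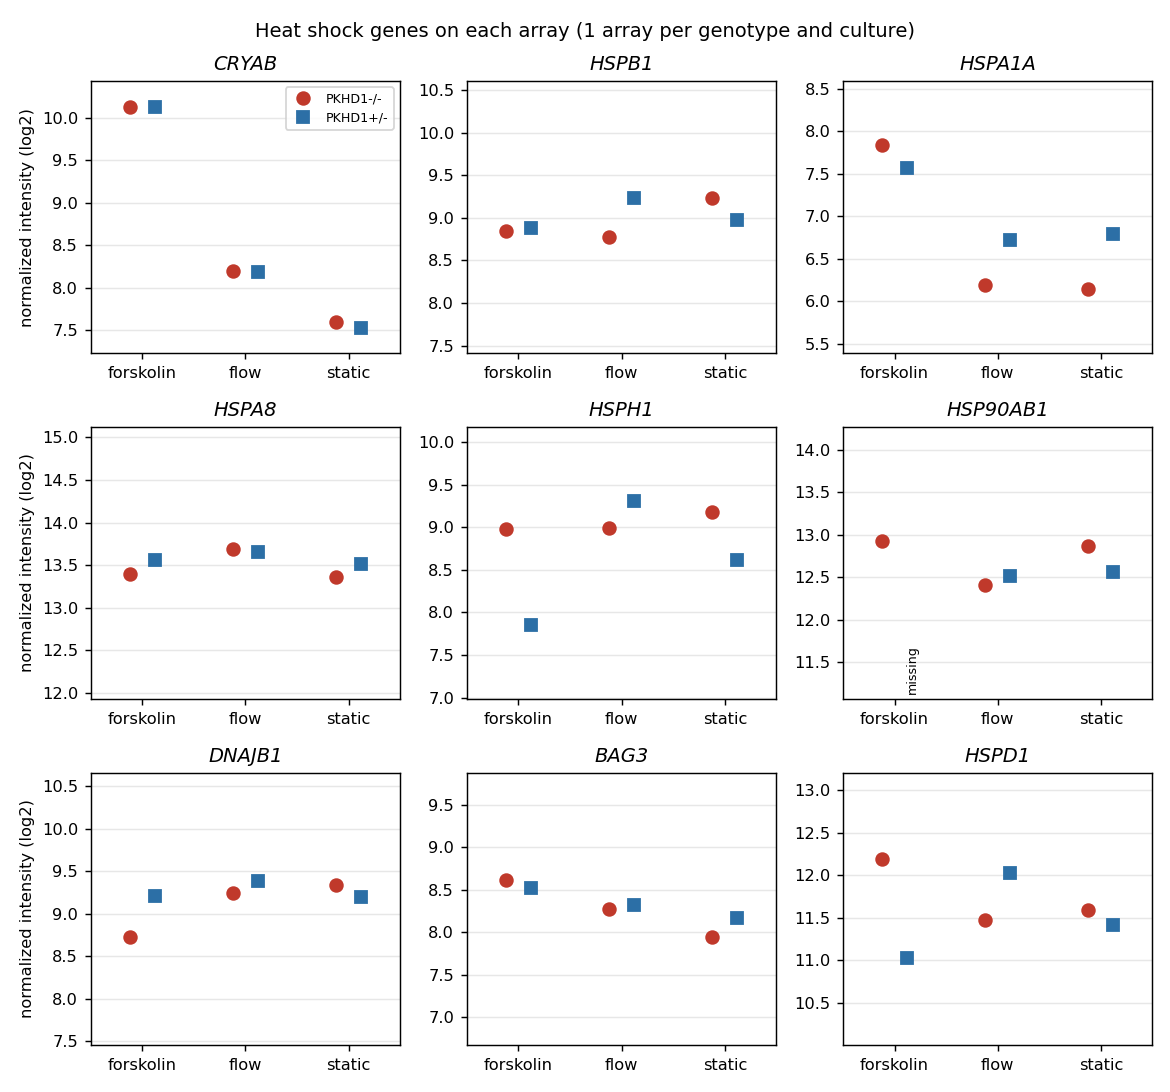
Normalized log2 intensity of each measured member on every array, by culture, with PKHD1-/- and PKHD1+/- as separate points and 1 array per point. CRYAB, HSPA1A and BAG3 are highest on both forskolin arrays, and HSPH1 and HSPD1 show their widest gap between genotypes with forskolin. All panels span the same log2 width, each around its own centre, and 1 HSP90AB1 value is missing.

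Markers of muscle ran in the same order of cultures as CRYAB. The list held 28 genes of skeletal and heart muscle, 26 of which had a probe, and their summed linear intensity was 116290 in PKHD1-/- and 105198 in PKHD1+/- with forskolin, 42605 and 25128 under flow, and 9690 and 3361 in static culture. Above background were 26 and 25 of them with forskolin, 24 and 26 under flow, and 23 and 20 in static culture. With forskolin 25 of 26 were higher in both genotypes, against 37.2% of all genes, and 11 passed the test, against 1.07%. Among the 11 were ACTA1, skeletal actin, at 6.02 ± 0.37, TNNC2, fast troponin C, at 5.57 ± 0.36 and MYH3, embryonic myosin heavy chain, at 5.46 ± 0.44 (limma adjusted p = 0.0449, 0.0453 and 0.0499). The median of the muscle list was 3.51 for forskolin minus static and 1.67 for flow minus static. Under flow 22 of 26 were higher in both genotypes, against 21.3% of all genes. Other cell type lists went both ways under flow. Endothelial markers had a flow median of -0.27, with 0 of 10 higher and 6 lower in both genotypes. Podocyte markers had -0.10, with 2 of 10 higher and 4 lower, and distal tubule and collecting duct markers 0.02. Of all genes 23.9% were lower in both. Cartilage and bone markers had a flow median of 0.50 with 10 of 12 higher in both genotypes, against the same 21.3%, proximal tubule markers 0.37 with 10 of 13, and neuron markers 0.32 with 8 of 12. Their forskolin medians were -0.13, -0.22 and -0.20. With forskolin podocyte markers had a median of 0.17, with 5 of 10 higher and 1 lower in both genotypes, against 37.2% and 34.9% of all genes. The forskolin median was 0.02 for distal tubule and collecting duct markers and 0.01 for endothelial markers. Glia markers had 0.24 under flow and -0.16 with forskolin. The part of any of these lists in the CRYAB differences was not tested. Between genotypes the marker list had a median of 0.35 and a static sum of 9690 in PKHD1-/- against 3361 in PKHD1+/-, whereas CRYAB differed by 0.07 in that pair.

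Lens markers did not run in this order, but they were dim, with a list median of 6.02 to 6.19 over the arrays. On each array 11 to 13 of 15 lay above background, which limits what the list can show of a culture order. Of 16 listed genes, 15 had a probe and 13 were tested, none was called in any comparison, and their sum ran from 976 to 1057 over the 6 arrays. Their median was 0.01 for genotype, -0.02 for flow and -0.00 for forskolin. CRYAA, the lens partner of CRYAB, was chosen after its values were seen, and read 6.19 in PKHD1-/- and 5.99 in PKHD1+/- with forskolin, against 6.21 and 6.19 in static culture.

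Chaperones known from muscle were divided. The list of other small heat shock proteins, 8 of them tested, had a forskolin median of -0.06. Of the 7 with both pairs 2 were higher and 2 lower in both genotypes, against 37.2% and 34.9% of all genes. HSPB6, HSPB7 and HSPB8, also made in muscle, differed by 0.17 ± 0.10, -0.05 ± 0.13 and -0.14 ± 0.17 with forskolin and were named after their values were seen. HSPB3, HSPB2 and UNC45B were far higher with forskolin on the arrays that measured them. HSPB3, a small heat shock protein of heart and skeletal muscle, read 9.92 in PKHD1-/- and 9.81 in PKHD1+/- with forskolin, 8.16 and 7.08 under flow, and 6.37 and 5.97 in static culture. It rose with forskolin by 3.69 ± 0.27 (limma adjusted p = 0.0490), and flow minus static was 1.45 ± 0.27 (adjusted p = 0.585). HSPB2 is another muscle small heat shock protein, and its gene neighbours CRYAB on chromosome 11. It read 11.34 in PKHD1-/- with forskolin, 8.85 and 7.41 in PKHD1-/- and PKHD1+/- under flow, and 6.67 and 6.17 in static culture, while its PKHD1+/- forskolin spot was marked not good and was left out. On these 5 arrays forskolin minus static was 4.44 ± 0.40 (adjusted p = 0.0759). UNC45B, the chaperone that folds muscle myosin, read 7.69 in PKHD1-/- and 7.39 in PKHD1+/- with forskolin, 6.86 and 6.41 under flow, and 6.11 and 5.98 in static culture. It rose with forskolin by 1.50 ± 0.10 (limma adjusted p = 0.0461).

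**Figure D3:**
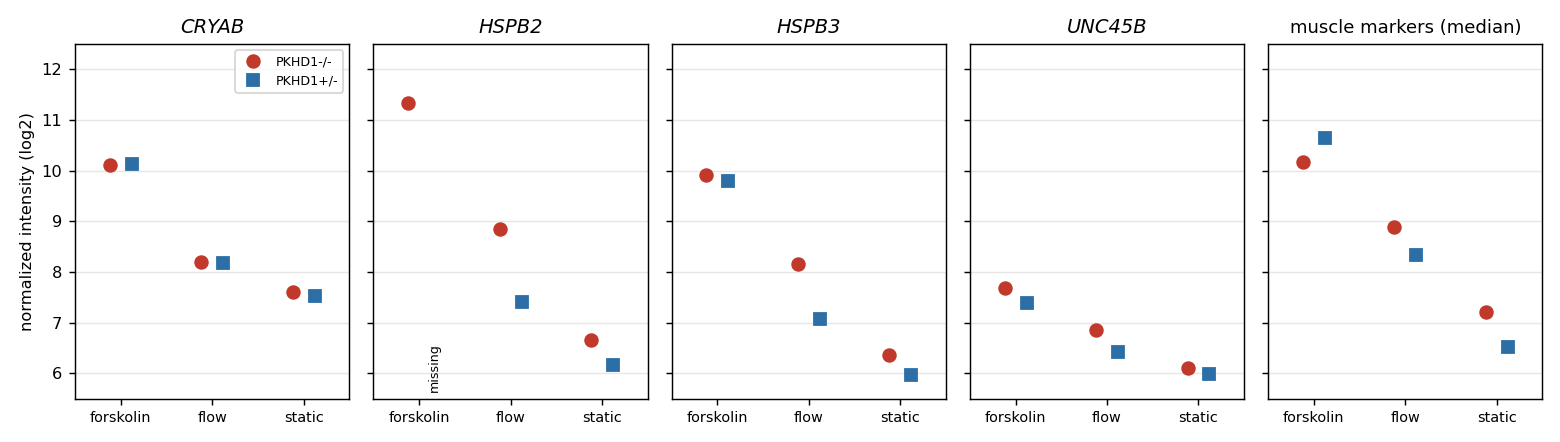
Normalized log2 intensity of CRYAB, HSPB2, HSPB3 and UNC45B, and the median of 26 muscle markers, on each array by culture and genotype. In every panel the forskolin points are highest and the static points lowest; levels compare arrays within a panel, not genes, and 1 HSPB2 value is missing.

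The genes whose profile over the 6 arrays was nearest to that of CRYAB, by the root mean square (RMS) difference between profiles centred on their own means, were sought among 14742 genes. They were KLHL40, a thin filament protein of skeletal muscle, at 0.14, NBL1, a secreted BMP antagonist, at 0.15, LRTM1 at 0.17, CKM, muscle creatine kinase, at 0.18 and RGMA, a BMP co-receptor, at 0.21. KLHL40 read 9.02 in PKHD1-/- and 9.05 in PKHD1+/- with forskolin, against 6.47 and 6.37 in static culture. All 5 were between 2.26 and 2.64 higher with forskolin than in static culture, and between 0.39 and 0.70 higher under flow. They were picked for nearness to CRYAB on these same arrays, so differences close to its own follow from the choice.

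HSPB1, the widely made small heat shock protein that also guards actin filaments, did not follow CRYAB. It read 8.84 in PKHD1-/- and 8.88 in PKHD1+/- with forskolin, 8.78 and 9.24 under flow, and 9.24 and 8.97 in static culture. Its highest values were in PKHD1+/- flow and PKHD1-/- static, so flow and static values overlapped, as did those of the genotypes. Both forskolin values lay below both static ones. Forskolin minus static was -0.24 ± 0.20 (limma adjusted p = 0.556), flow minus static -0.10 ± 0.20, and the genotype difference -0.08 ± 0.16. The range over arrays, 0.46, was near the median range of all genes above background on 6 arrays, 0.45, against 2.60 for CRYAB. Nearest to HSPB1 in profile were IRF3, CBLL1, CNPY3, EFHD1 and KRT14, at RMS differences of 0.028 to 0.045.

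HSPA1A, the stress-induced cytosolic HSP70 encoded on chromosome 6 from 31815543 to 31817942, had the second widest range of the set. It read 7.84 in PKHD1-/- and 7.56 in PKHD1+/- with forskolin, 6.20 and 6.72 under flow, and 6.14 and 6.79 in static culture. Both forskolin arrays lay above the other 4, which themselves split by genotype. PKHD1-/- read lower than PKHD1+/- on those 4 and higher with forskolin. Forskolin minus static was 1.70 in PKHD1-/- and 0.77 in PKHD1+/-, and the mean of 1.24 ± 0.27 did not pass the test (limma adjusted p = 0.123). It passed at 1.27 under 75th percentile scaling (adjusted p = 0.0250), where 6877 of 16475 genes did, and with limma's trend and robust settings (adjusted p = 0.0273), where 1140 did. In the authors' value table the difference was 2.35 and did not pass (adjusted p = 0.0773), with forskolin to static ratios of 12.1 and 10.1 for the 2 probes in PKHD1-/- and 2.02 and 2.70 in PKHD1+/-. Without the PKHD1-/- forskolin array it was 0.80, and leaving out 1 array at a time gave values up to 1.67.

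Both HSPA1A probes showed the same order. The first read 7.86 in PKHD1-/- and 7.60 in PKHD1+/- with forskolin, 6.15 and 6.85 under flow, and 6.11 and 6.92 in static culture. The second read 7.82 and 7.53, 6.24 and 6.59, and 6.17 and 6.66 in the same cultures, PKHD1-/- before PKHD1+/-. With either probe, PKHD1-/- exceeded PKHD1+/- with forskolin and lay below it in the other 2 cultures.

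The genotype difference of HSPA1A was 0.27 with forskolin, -0.52 under flow and -0.65 in static culture, a mean of -0.30 ± 0.22 (SE, n = 3 pairs, limma adjusted p = 1.00). Without both forskolin arrays the mean was -0.59, still not called. The spots of PKHD1-/- in flow and static culture were dim, 16.0 to 25.6 units above blank, against 54.4 to 104 for PKHD1+/- in the same cultures, and with forskolin both genotypes stood at 89.1 to 98.7. In the authors' value table the ratio of PKHD1-/- to PKHD1+/- was 0.218 and 0.383 under flow for the 2 probes. It was 0.236 and 0.394 on the static arrays and 1.42 and 1.48 on the forskolin arrays. The scanner files also hold a second value per spot, which followed the spot's own signal. It was 17882.5 for an HSPA8 median of 16280.9 in PKHD1-/- flow, so it was not taken as slide background. On the PKHD1-/- forskolin array the first HSPA1A probe's median was 1.62 times this second value, at the 96.2 percentile of that array. The second probe's ratio there was 1.03, at the 29.3 percentile. On the PKHD1+/- forskolin array the ratios were 1.29 and 1.01, at the 89.5 and 13.3 percentiles. Whether these ratios bear on the sign of the forskolin pair was not tested. Nearest in profile were BCL9L, NMU, CAVIN3, DGKZ and SLIRP, at 0.17 to 0.22.

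HSPA1B, whose coding sequence is nearly the same as that of HSPA1A, was chosen after its values were seen, and its order differed. It read 7.70 in PKHD1-/- and 8.96 in PKHD1+/- with forskolin, 8.37 and 8.80 under flow, and 7.88 and 7.88 in static culture. Forskolin minus static was -0.18 in PKHD1-/- and 1.09 in PKHD1+/-. Probe sequences were not used here, so how far the HSPA1A and HSPA1B probes share transcripts is uncertain.

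HSPA8, the constitutive cytosolic HSP70, varied least, over 0.34 on the log2 scale. It read 13.39 in PKHD1-/- and 13.56 in PKHD1+/- with forskolin, 13.69 and 13.66 under flow, and 13.36 and 13.51 in static culture. Both flow arrays were above both static arrays, by 0.24 ± 0.08 on average (limma adjusted p = 0.840), while forskolin minus static was 0.04 ± 0.08 and genotype -0.10 ± 0.07. The forskolin difference was 0.37 under 75th percentile scaling and 0.65 in the authors' value table, not called in either. In that table the ratio of flow to static was 1.38 in PKHD1-/- and 0.817 in PKHD1+/-.

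Among the partners of HSP70, BAG3, the co-chaperone that hands clients to autophagy and serves filament turnover in muscle, ran in the culture order of CRYAB. It read 8.61 in PKHD1-/- and 8.52 in PKHD1+/- with forskolin, 8.27 and 8.32 under flow, and 7.94 and 8.17 in static culture. No flow or forskolin value overlapped a static one. The lowest BAG3 spot, on the PKHD1-/- static array, was 1.55 times the second scanner value described for HSPA1A. This ratio lay at the 95.6 percentile of that array, and the part of this spot in the culture order was not tested. Forskolin minus static was 0.51 ± 0.10 (limma adjusted p = 0.106) and flow minus static 0.24 ± 0.10 (adjusted p = 0.917), with a genotype difference of -0.06 ± 0.08. Under 75th percentile scaling the forskolin difference was 0.42 and passed (adjusted p = 0.0458), in a fit that called 6877 of 16475 genes and had an all-gene median of 0.31. It did not pass in the authors' value table (adjusted p = 0.349) or with limma's trend and robust settings (adjusted p = 0.180). Over the 6 arrays Pearson's r with CRYAB was 0.91 for BAG3, 0.88 for HSPA1A, 0.04 for HSPD1, -0.12 for HSPA8, -0.53 for HSPB1 and for HSPH1, and -0.67 for DNAJB1, as a description of 6 points that share arrays and their batches.

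DNAJB1, the J-domain partner induced by heat, read 8.73 in PKHD1-/- and 9.21 in PKHD1+/- with forskolin, 9.25 and 9.38 under flow, and 9.34 and 9.20 in static culture. PKHD1-/- forskolin stood lowest, and the PKHD1+/- forskolin array lay between the 2 static arrays. Forskolin minus static was -0.30 ± 0.17 (limma adjusted p = 0.404), flow minus static 0.05 ± 0.17 and genotype -0.16 ± 0.14. Its nearest profiles were those of GGCX, DNM3, BUB1B, DDX55 and C2orf42, at 0.044 to 0.058.

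HSPH1, the HSP110 exchange factor of HSP70, read 8.98 in PKHD1-/- and 7.85 in PKHD1+/- with forskolin, 9.0 and 9.31 under flow, and 9.18 and 8.62 in static culture. PKHD1+/- forskolin was the low array and the other 5 lay within 0.69 of each other. The genotype difference was 1.12 with forskolin, -0.32 under flow and 0.56 in static culture, 0.45 ± 0.32 on average (limma adjusted p = 1.00). Flow minus static was 0.25 ± 0.39 and forskolin minus static -0.48 ± 0.39.

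HSPD1, the mitochondrial chaperonin, showed the same signs between genotypes. It read 12.19 in PKHD1-/- and 11.02 in PKHD1+/- with forskolin, 11.47 and 12.03 under flow, and 11.59 and 11.41 in static culture. The forskolin arrays held both its highest and its lowest value. PKHD1-/- minus PKHD1+/- was 1.17 with forskolin, -0.56 under flow and 0.18 in static culture, 0.26 ± 0.38 on average (limma adjusted p = 1.00), and forskolin minus static was 0.60 in PKHD1-/- and -0.39 in PKHD1+/-, a mean of 0.11 that was 0.41 in the authors' value table. On the PKHD1-/- forskolin array the HSPD1 spot median was 2.59 times the second scanner value described for HSPA1A. The HSPH1 spot median was 2.05 times its own. These ratios lay at the 99.3 and 98.5 percentiles of an array with a median of 1.07, whereas both stood at 1.04 on the PKHD1+/- forskolin array. The part of these spots in the genotype gap was not tested.

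HSP90AB1, the constitutive cytosolic HSP90, read 12.92 in PKHD1-/- with forskolin, 12.41 and 12.52 in PKHD1-/- and PKHD1+/- under flow, and 12.86 and 12.56 in static culture. Its PKHD1+/- forskolin spot was marked not good and was left out, so the fit used 5 arrays. Both flow arrays lay below both static arrays, by 0.45 in PKHD1-/- and 0.04 in PKHD1+/-. The fitted flow difference was -0.24 ± 0.14, forskolin minus static 0.16 ± 0.19 (limma adjusted p = 0.699) and genotype 0.10 ± 0.14. With the marked spot kept, forskolin minus static was -0.19, the opposite sign, and in the authors' value table it was 0.67, not called. A probe named for HSP90AA2, now the pseudogene HSP90AA2P and a relative of HSP90AA1, was looked at after its values were seen. It read 10.07 in PKHD1-/- and 9.70 in PKHD1+/- with forskolin, 11.43 and 11.54 under flow, and 11.31 and 11.31 in static culture. This was a difference of -1.42 ± 0.14 for forskolin (adjusted p = 0.0584), and it was not taken as a value of HSP90AA1.

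With forskolin, 1 of the 9 measured members, CRYAB, passed limma's test, against 1.07% of 16475 genes tested (177 genes, 120 higher and 57 lower). The split of calls was 6059 higher and 818 lower under 75th percentile scaling, which also set the median of all genes at 0.31, and 318 higher and 328 lower in the authors' value table. Of the 8 members with both pairs, CRYAB, HSPA1A, HSPA8 and BAG3 were higher in both genotypes, against 37.2% of all genes, and HSPB1 and HSPH1 were lower in both, against 34.9%. CRYAB and HSPA1A were higher by at least 0.5 in both, against 4.38% of genes, and none was lower by that much, against 4.77%. The member median was 0.11 and that of all genes 0.00. This median depended on the processing: it was 0.21 under 75th percentile scaling (all genes 0.31), 0.65 in the authors' value table (all genes 0.08), and 0.02 to 0.16 with 1 array left out.

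Under flow no member passed limma's test, nor did any of 16474 genes (0%), while 983 genes, 5.97%, had an unadjusted p under 0.05. CRYAB, HSPA8 and BAG3 were higher in both genotypes, 3 of 9 against 21.3% of all genes. HSP90AB1 was lower in both, 1 of 9 against 23.9%. CRYAB was the member higher by at least 0.5 in both genotypes, against 1.08% of genes. The member median was 0.24 and that of all genes -0.01. It turned to -0.18 without the PKHD1+/- flow array and was 0.09 in the authors' value table.

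**Figure D4:**
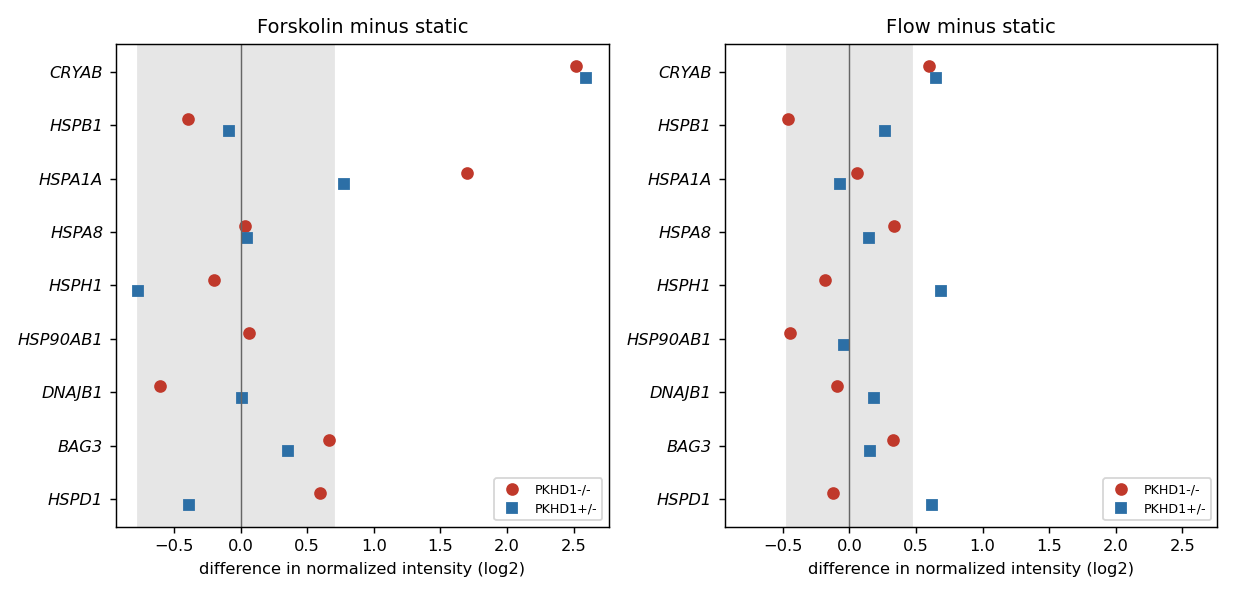
Difference in normalized log2 intensity from static culture for each member, with forskolin in one panel and flow in the other, and 1 point per genotype. The grey band runs from the lower 5th to the higher 95th percentile of all genes over the pairs in the panel; both CRYAB points lie beyond it in both panels, and both HSPA1A points beyond it for forskolin.

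Between PKHD1-/- and PKHD1+/- no member differed in 1 direction throughout. Of 8 members with 3 pairs, 0 were higher in every culture and 0 were lower, against 11.5% and 9.24% of all genes. None differed by at least 0.5 in every culture, higher (0.055% of genes) or lower (0.0122%). In limma's test 0 of 16476 genes passed (0%), while 531, or 3.22%, had an unadjusted p under 0.05, and no member was among them. The member median was -0.06 and that of all genes -0.00. It turned to 0.03 without either flow array and to 0.0030 in the authors' value table. HSPA1A, HSPH1 and HSPD1 had the widest genotype gaps, and in each the sign changed between cultures. Whether a genotype difference changes with culture could not be tested with 1 array per group.

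**Figure D5:**
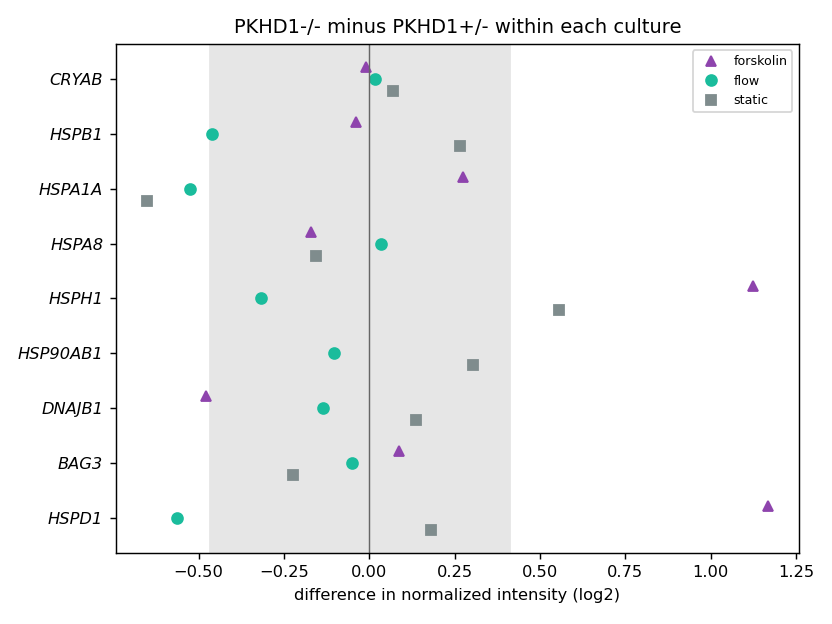
PKHD1-/- minus PKHD1+/- on the log2 scale for each member, 1 point per culture. The grey band runs from the lowest 5th to the highest 95th percentile of all genes over the 3 cultures; CRYAB stays within 0.07 of 0, while HSPA1A, HSPH1 and HSPD1 reach beyond the band on one or both sides and DNAJB1 with forskolin lies just past its lower edge.

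The other chaperone and heat shock genes, 94 listed, 90 with a probe and 89 tested, went both ways with forskolin. Their median was -0.05. Of 88 with both pairs, 28 were higher and 34 lower in both genotypes, against 37.2% and 34.9% of all genes. By at least 0.5 in both, 4 were higher and 10 lower, against 4.38% and 4.77% of all genes. Of the 89, 2 were called, HSPB3 and UNC45B, against 1.07% of all genes. After these, among genes measured in both pairs, DNAJA4, a J-domain protein, came next upward at 0.78 ± 0.08 (limma adjusted p = 0.0598). The largest differences downward were those of CLU, the secreted chaperone clusterin, at -1.96 ± 0.35 (adjusted p = 0.0983), SERPINH1, the collagen chaperone HSP47, at -1.54 ± 0.58 (adjusted p = 0.246), and SQSTM1, an autophagy receptor, at -1.22 ± 0.11 (adjusted p = 0.0514). By class, against 37.2% of all genes higher and 34.9% lower in both genotypes, 12 of 23 co-chaperones were higher and 4 lower (median 0.18), and 0 of 9 other chaperonins were higher and 5 lower (median -0.13). The other HSP70 and HSP110 genes had 4 of 13 higher and 7 lower (median -0.13), and J-domain genes 4 of 20 higher and 9 lower (median -0.07). Other genes induced by heat shock had 3 of 10 higher and 5 lower (median -0.21). Of these, SERPINH1, SQSTM1, HMOX1 and CLU were lower by at least 0.5 in both genotypes, against 4.77% of all genes.

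Under flow the same 89 genes had a median of -0.01. In both genotypes 23 were higher and 18 lower, against 21.3% and 23.9% of all genes, and none was called. HSPB2 at 1.71 ± 0.30, HSPB3 and HMOX1, the heme oxygenase induced by oxidants, at 1.00 ± 0.11, were the highest, and these 3 were the ones higher by at least 0.5 in both. HSPA5, the HSP70 of the endoplasmic reticulum, read lower by a similar amount in both genotypes, at -0.30 ± 0.06 (limma adjusted p = 0.593), as did DNAJB5 at -0.36 ± 0.15 and DNAJC2 at -0.31 ± 0.18 with unequal pairs. Between genotypes the median was -0.02, with 6 higher and 7 lower in every culture, against 11.5% and 9.24% of all genes, and none called. HSP90B1, the HSP90 of the endoplasmic reticulum, differed by -0.41 ± 0.07, BAG2 by -0.35 ± 0.14 and HSPA4, an HSP110, by -0.31 ± 0.11, while HSPB3 at 0.53 ± 0.22, UNC45B at 0.29 ± 0.08 and SQSTM1 at 0.23 ± 0.09 read higher in PKHD1-/-. The chaperonins had a median genotype difference of 0.15, made up of 0.29 with forskolin, 0.12 under flow and -0.05 in static culture. Of the 9, 1 was higher in every culture, against 11.5% of all genes.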

How the data were processed

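Messenger RNA of 6 organoid samples was read on single-colour 3D-Gene Human 25k arrays. Per the labels, RNA was amplified and coupled to Cy5. The deposited scanner files give each spot's median intensity on a linear scale without background subtraction, per the file headers. The authors' deposited value table holds an intensity per probe that lay on a straight line of that median, with 0 at the blank mean, and served as an alternative. Coordinates and promoters are from RefSeq, GRCh38.p14.

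Spots were corrected by normexp (offset 50), log2 transformed and quantile normalized between arrays, and spots marked not good were left out on that array. A probe was above background past the blank mean, trimmed by 5% at each end, plus 2 SD. Probes of a gene were averaged, and genes above background on at least 2 arrays were tested with limma 3.58.1 (R 4.3.3) in the model culture plus genotype, 2-sided, with Benjamini-Hochberg adjustment over all genes and a threshold of 0.05. Residual degrees of freedom were 2 and the prior 1.53. With 1 array per group, the spread is that remaining after culture and genotype are fitted, and it may be technical. The number of arrays limits the precision. The script was checked on simulated data.

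Members and gene lists were chosen with earlier results of these data known. The rule named every member, other chaperone genes past the threshold or else the 3 largest mean differences in each direction with 1 sign in every pair, the 3 largest of a cell type list, and the 5 nearest profiles of CRYAB, HSPB1, HSPA1A and DNAJB1. Alternatives were no background correction, 75th percentile scaling, the value table, other filters on dim genes, limma's trend and robust settings, the brightest probe, leaving out arrays and, added after seeing the data, keeping spots marked not good.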

Additional observations from a re-analysis of the deposited data

Results flagged for a closer look

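Opposite signs of at least 0.25 between arrays under the same contrast marked 4 members for a closer look. Each value rests on a single pair of arrays, and the difference between the pairs was not tested.

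HSPA1A read lower in PKHD1-/- than in PKHD1+/- by -0.52 under flow and -0.65 in static culture, and higher by 0.27 with forskolin. HSPD1 had a genotype difference of 1.17 with forskolin and -0.56 under flow, and its forskolin minus static difference was 0.60 in PKHD1-/- and -0.39 in PKHD1+/-. HSPH1 had genotype differences of 1.12 with forskolin, -0.32 under flow and 0.56 in static culture. HSPB1 had a genotype difference of -0.46 under flow and 0.27 in static culture, and its flow minus static difference was -0.46 in PKHD1-/- and 0.27 in PKHD1+/-.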

How the results depend on the processing

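Over 395 values of members under the alternatives, 357 kept their direction and their side of the threshold, 29 turned direction, 6 lost a call and 3 gained one. Direction could not turn under the filters on dim genes or limma's trend and robust settings, which reuse the same values. The brightest probe could change HSPA1A alone. Leaving out either array of a genotype pair gave the same genotype difference. The 357 is therefore no measure of stability. The 6 lost calls were CRYAB with forskolin without each array, and the 3 gained ones were 2 of HSPA1A and 1 of BAG3. CRYAB with forskolin passed under every other alternative run, at 2.51 to 3.13. Genes called for forskolin numbered 6877 under 75th percentile scaling, 646 in the value table, 27 with no filter on dim genes and 1140 with limma's trend and robust settings, and 0 without any 1 array, against 177. Leaving out 1 array gave 0 to 1 members higher and 0 to 1 lower by 0.5 between genotypes, 1 to 3 higher under flow, and 2 to 4 higher and 0 to 1 lower with forskolin. An array left out takes its pair with it, so fewer pairs had to pass and the bar was lower than in the main counts. The share of all genes past this lower bar was not counted. Without both forskolin arrays 1 member, HSPA1A, was lower in PKHD1-/- by 0.5 in the remaining flow and static pairs, again without a share of all genes beside it.

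Direction turned for differences that were not called. By 75th percentile scaling the CRYAB genotype difference was -0.022. In the value table HSPA8 genotype was 0.0030, HSPA1A flow 0.069 and DNAJB1 flow -0.035. Without both forskolin arrays DNAJB1 genotype was 0.00061 and HSPD1 genotype -0.19. HSP90AB1 forskolin was -0.19 with its marked spot kept. Leaving out 1 array at a time, genotype differences ran from -0.25 to 0.11 for HSPB1, -0.10 to 0.31 for HSP90AB1, -0.31 to 0.00061 for DNAJB1, -0.19 to 0.67 for HSPD1 and -0.14 to 0.017 for BAG3. Flow differences ran from -0.38 to 0.19 for HSPB1, -0.27 to 0.26 for HSPA1A, -0.18 to 0.27 for DNAJB1, -0.32 to 0.83 for HSPH1 and -0.37 to 0.87 for HSPD1. Forskolin differences ran from -0.50 to 0.016 for HSPB1, -0.015 to 0.093 for HSPA8, -0.99 to 0.018 for HSPH1 and -0.57 to 0.78 for HSPD1. The causes were not tested, and signal near blank limits HSPA1A in PKHD1-/- flow and static culture.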
